A study of Mus musculus with 6 samples.

Results

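The 43 genes described here encode proteins that copy DNA, drive the cell cycle, and separate chromosomes. They were chosen by name from a hand-written list, and all 43 were found among the 55421 genes of the count table. C2C12 myoblasts are an established line of mouse muscle precursor cells that leave the cell cycle and fuse into myotubes when serum is reduced. The normal group carried a *GFP* plasmid with 5 CTG repeats (GFP-CUG5), and the DM1 group carried the same kind of plasmid with 200 CTG repeats (GFP-CUG200), a model of the repeat RNA of myotonic dystrophy type 1. Both lines were made by stable plasmid transfection under G418 selection, and both groups were harvested at differentiation day 4 in 3 libraries each. Each group rests on 1 transfected line as far as the labels say. The study calls the libraries of a group biological replicates, without saying whether they came from separate transfections, so the p-values measure the spread between libraries of 1 line per group. The question was whether the DM1 cells, compared with normal cells, differed in the transcripts of cells that are still cycling.

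Dividing cells license their replication origins in G1 by loading the MCM helicase, fire them in S phase, and then condense and separate their chromosomes in M phase. Cyclin-dependent kinases (CDKs) time these steps. Many replication genes are targets of the E2F transcription factors, and many mitosis genes are targets of B-MYB, FOXM1, and the DREAM/MuvB complex. Myoblasts leave the cell cycle before they fuse, and a differentiated C2C12 culture also keeps unfused cells, so a bulk library mixes myotubes with cells that did not fuse.

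The libraries held between 61707889 and 80957325 counts, where 1 count stands for 75 aligned bases rather than for 1 read. Mitochondrial genes took between 8.90% and 13.5% of them. The 43 members took 0.332%, 0.311%, and 0.310% of all counts in the normal libraries 1, 2, and 3 and 0.336%, 0.311%, and 0.312% in the DM1 libraries 1, 2, and 3. The lowest count of any member in any library was 336, for *Orc1*. The members lie on 16 chromosomes, 11 of them share exonic bases with a gene on the opposite strand, and 3 with a gene on their own strand. Per transcript length their mean levels ran from 3.87 TPM (*Orc1*) to 206 TPM (*Pcna*), and 40 of the 43 were above the median of all tested genes. Myogenic genes were present in both groups: *Myod1*, the myoblast determination factor, measured 61.7 ± 3.04 CPM in the normal and 43.02 ± 5.32 CPM in the DM1 group (mean ± SD, n = 3). Of 10 markers of other cell types, 4 (*Ptprc* and *Adgre1* of blood cells, *Epcam* of epithelia, and *Adipoq* of fat cells) were at 0 in all 6 libraries. The list summed to 11.6 ± 0.671 CPM in the normal and 14.9 ± 0.459 CPM in the DM1 group. By TPM the sums overlapped, at 15.63, 11.45, and 12.3 TPM in normal and 14.15, 15.46, and 20.12 TPM in DM1 libraries. Only 3 of the 10 had enough counts to be tested. Of these the epithelial keratin *Krt14* was upregulated (log2 fold change 0.85), and the lowest log2 fold change was -0.21.

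Most of the 43 genes, 35 of them, did not pass the test between the groups. With edgeR's quasi-likelihood test, 8 of 43 members (18.6%) passed an adjusted p of 0.05, beside 15.9% of all 19005 tested genes. The 2 members that were upregulated in the DM1 group were *Nusap1* and *Pcna* (beside 7.13% of all genes upregulated), and the 6 downregulated members were *Mcm2*, *Mcm3*, *Mcm4*, *Mcm5*, *Cdk2*, and *E2f2* (beside 8.73% of all genes downregulated). In these bulk libraries, fewer cells with a transcript and less of it per cell cannot be told apart. No member passed the stricter rule that also asks for an absolute log2 fold change over 1, which 2.18% of all genes passed, and the same count of 0 was found with DESeq2. At an unadjusted p under 0.05 there were 13 members (30.2%), beside 30.7% of all tested genes. The median log2 fold change was 0.06 over the members and 0.02 over all tested genes, with 24 members above 0 and 19 below. The 3 libraries of the groups did not overlap for 20 of the 43 members (9 higher and 11 lower in DM1), which is 46.5% beside 37.2% of all tested genes.

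The intervals show how large a difference the data leave room for. Of the 35 members that were not called, 28 had a 95% interval of the log2 fold change that lay within -0.5 and 0.5. Over all 43 members, 42 intervals lay within -1 and 1. The exception was *Cdk2*. The widest interval reached 0.483 to either side, for *Foxm1*, whose libraries scattered in both groups.

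**Figure D1:**
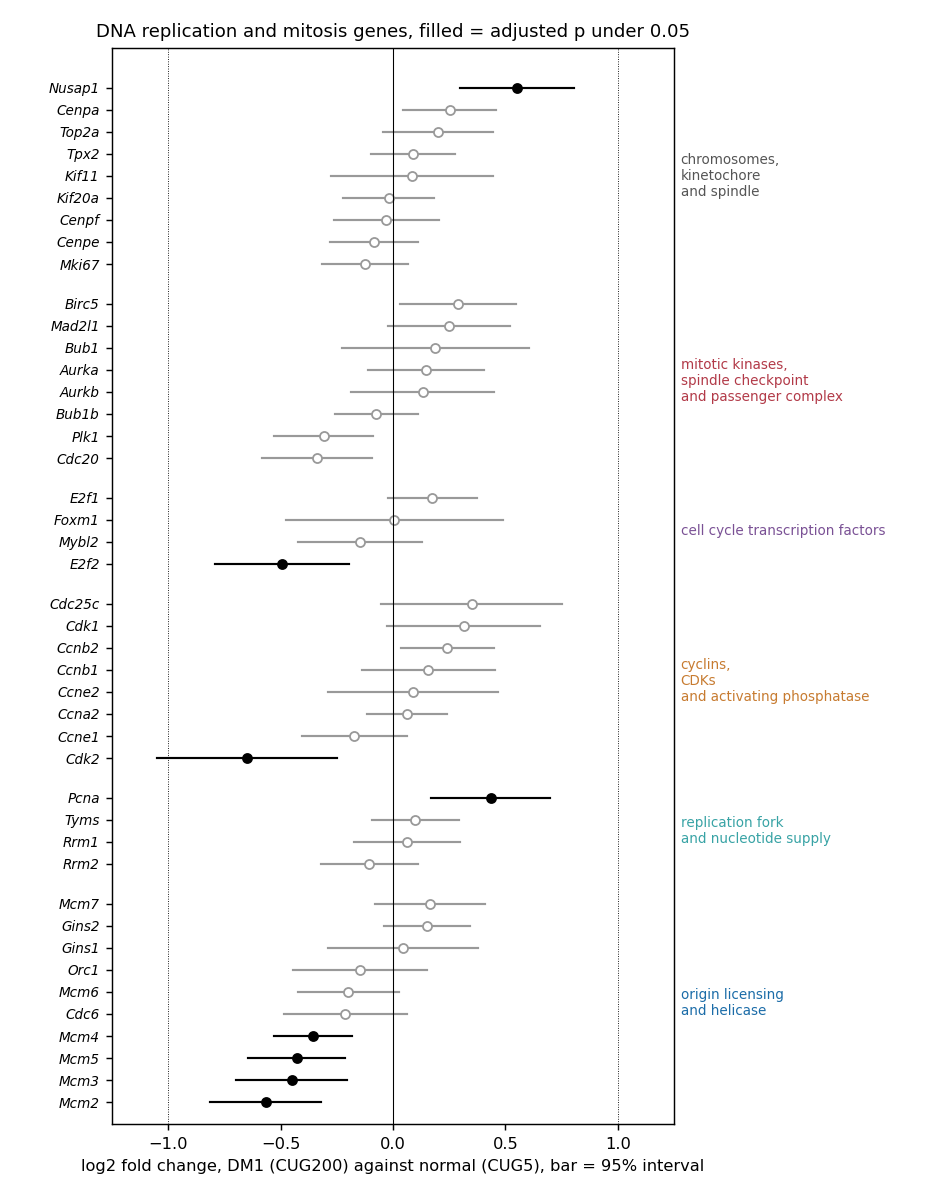
Each row is 1 of the 43 members, grouped by role, with its log2 fold change (DM1 against normal, horizontal axis) as a point and its 95% interval as a bar. Filled black points are the 8 members with an adjusted p under 0.05, and the dotted lines mark log2 fold changes of -1 and 1. The black points in the licensing group, *Mcm2* to *Mcm5*, all sit left of 0, and *Nusap1* and *Pcna* sit right of it.

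Promoter sequences are shown for 4 called members, 2 downregulated and both upregulated ones, because the replication genes and the mitosis genes are known to be read through different promoter elements. The windows run from 250 bases before to 50 bases after the start site in RefSeq (GRCm38.p6), 5′ to 3′ on the strand of the gene, and 33 of the 43 members had an entry, with 35 windows in all. Capitals mark matches, on either strand, to TTTNNCGC (an E2F element), TTTGAA (the CHR element bound by DREAM/MuvB), and CCAAT (bound by NF-Y), with overlapping matches each counted. *Mcm2* and *Mcm5* are MCM helicase subunits, *Pcna* is the sliding clamp, and *Nusap1* is a spindle protein. The windows are chr6:88898731-88899030 (minus strand) for *Mcm2*, chr8:75109259-75109558 (plus) for *Mcm5*, chr2:132253131-132253430 (minus) for *Pcna*, and chr2:119618048-119618347 (plus) for *Nusap1*.
Mcm2: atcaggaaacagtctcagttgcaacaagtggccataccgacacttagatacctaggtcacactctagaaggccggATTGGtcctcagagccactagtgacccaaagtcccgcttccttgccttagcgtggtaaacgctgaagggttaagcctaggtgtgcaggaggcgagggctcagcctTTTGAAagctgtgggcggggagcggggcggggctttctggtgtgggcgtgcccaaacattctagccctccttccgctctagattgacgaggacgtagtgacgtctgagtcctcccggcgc
Mcm5: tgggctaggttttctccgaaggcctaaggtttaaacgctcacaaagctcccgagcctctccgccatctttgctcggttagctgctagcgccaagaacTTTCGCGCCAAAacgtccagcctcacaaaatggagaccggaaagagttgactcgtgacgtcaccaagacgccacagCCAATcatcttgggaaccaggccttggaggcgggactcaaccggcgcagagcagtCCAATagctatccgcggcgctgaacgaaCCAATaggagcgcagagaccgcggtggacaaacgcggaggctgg
Pcna: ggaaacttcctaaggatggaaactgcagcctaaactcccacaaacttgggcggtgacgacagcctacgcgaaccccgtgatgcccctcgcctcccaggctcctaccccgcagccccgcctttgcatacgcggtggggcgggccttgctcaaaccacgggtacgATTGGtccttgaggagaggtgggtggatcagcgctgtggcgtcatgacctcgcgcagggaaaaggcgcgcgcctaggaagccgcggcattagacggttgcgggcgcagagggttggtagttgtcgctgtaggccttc
Nusap1: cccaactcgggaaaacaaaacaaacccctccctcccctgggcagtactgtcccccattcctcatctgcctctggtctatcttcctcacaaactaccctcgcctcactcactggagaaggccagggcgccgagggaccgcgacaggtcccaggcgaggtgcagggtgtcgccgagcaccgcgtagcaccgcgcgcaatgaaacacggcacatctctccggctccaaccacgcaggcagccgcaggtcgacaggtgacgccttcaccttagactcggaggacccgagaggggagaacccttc

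The *Mcm5* window held 2 overlapping E2F matches, which open 153 and 149 bases before the start, and 3 CCAAT matches. The *Mcm2* window held no E2F match in these letters, but 1 CHR match and 1 CCAAT match, the *Pcna* window held 1 CCAAT match, and the *Nusap1* window held none of the 3. Over all member windows, 28.6% had an E2F match (5.16% of all 32817 windows), 37.1% a CHR match (17.9%), and 77.1% a CCAAT match (37.4%). By role, and without a test, 6 of 8 windows of licensing genes had an E2F match and 1 had a CHR match, while of the 7 windows of chromosome, kinetochore, and spindle genes 5 had a CHR match and 0 had an E2F match. Other roles were mixed: of the 5 windows of cyclin and CDK genes 2 had an E2F match and 2 a CHR match, of the 4 of transcription factors 1 had each, of the 4 at the fork 1 had an E2F match and 0 a CHR match, and of the 7 of mitotic kinases and checkpoint genes 0 had an E2F match and 4 a CHR match. A match describes the letters in the window and not a bound site.

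The licensing and helicase genes included 4 of the 6 downregulated members, which is 40.0% of the 10 genes of this role. MCM2 to MCM7 form the ring-shaped replicative helicase, and 4 of its 6 subunit genes (66.7%) were downregulated in the DM1 group, beside 8.73% of all genes. All 4 calls were lost when normal library 1, normal library 3, or DM1 library 2 was left out, and those of *Mcm3* and *Mcm4* also without normal library 2. *Mcm2* measured 49.2, 42.3, and 44.9 CPM in the normal libraries 1, 2, and 3 and 29.9, 27.6, and 34.5 CPM in the DM1 libraries 1, 2, and 3. All 3 DM1 libraries were below all normal ones, and the level fell by 32.5% (log2 fold change -0.57, 95% interval -0.82 to -0.32, edgeR adjusted p = 0.0116).

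*Mcm3* measured 36.8, 34.8, and 33.2 CPM in normal and 27.4, 27.2, and 22.1 CPM in DM1 libraries (log2 fold change -0.45, adjusted p = 0.0261). *Mcm4* measured 78.3, 78.7, and 81.2 CPM against 65.7, 61.2, and 59.3 CPM (-0.36, adjusted p = 0.0169), the smallest spread of these 4 genes in the normal group. *Mcm5* measured 43.4, 38.2, and 40.8 CPM against 30.5, 27.9, and 32.4 CPM (-0.43, adjusted p = 0.0193). For each of the 4 genes the groups did not overlap, and the fall was between 21.8% and 32.5%.

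The other 2 subunits did not pass the threshold, and their difference from these 4 was not tested. *Mcm6* had a log2 fold change of -0.20 (95% interval -0.43 to 0.02, adjusted p = 0.213), with DM1 library 1 inside the normal range at 59.9 CPM, and was called downregulated without that library (adjusted p = 0.0429). *Mcm7* had a log2 fold change of 0.16 (95% interval -0.08 to 0.41, adjusted p = 0.351), and its exons hold the microRNA genes *Mir25* and *Mir93* on the same strand. Per transcript length, the most abundant subunit gene was *Mcm7*, with a mean of 55.0 TPM over the 6 libraries, and the least abundant was *Mcm3*, with 17.1 TPM. The summed level of the 6 genes was 343.3 ± 11.6 CPM in the normal and 293.4 ± 23.2 CPM in the DM1 group, a ratio of 0.855.

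The remaining licensing genes did not pass the test. *Cdc6*, which loads the MCM ring, had a log2 fold change of -0.21 (adjusted p = 0.280) and *Orc1*, a subunit of the origin recognition complex, -0.15 (adjusted p = 0.506). *Gins2*, a subunit of the GINS complex that activates the helicase, measured 31.2, 35.1, and 32.9 CPM in normal and 37.2, 37.0, and 35.8 CPM in DM1 libraries (0.15, adjusted p = 0.273, and -0.055 with TPM values). *Gins1* had a log2 fold change of 0.04 (adjusted p = 0.882). The median over the 10 genes of this role was -0.21.

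At the replication fork the direction was the other way for the clamp. *Pcna*, which tethers DNA polymerases to DNA, measured 167, 176, and 154 CPM in the normal and 255, 226, and 190.3 CPM in the DM1 libraries. The groups did not overlap, DM1 library 3 was the lowest of its group, and the level was 35.2% higher in DM1 (log2 fold change 0.43, 95% interval 0.17 to 0.70, adjusted p = 0.0373). This call was lost when any library but DM1 library 3 was left out, with adjusted p-values up to 0.137, and the fold change moved to 0.24 with GC content and length trends removed. Per transcript length *Pcna* was the most abundant member, and *Rrm2* followed with 199.7 TPM.

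The genes for nucleotide supply did not pass the test. *Rrm2*, the regulated subunit of ribonucleotide reductase, measured 295, 264, and 262 CPM in normal and 279, 243, and 239.5 CPM in DM1 libraries (log2 fold change -0.11, adjusted p = 0.511). *Rrm1*, the large subunit, had a log2 fold change of 0.06 (adjusted p = 0.749). *Tyms*, thymidylate synthase, had 0.10 (adjusted p = 0.482), with a 95% interval of -0.09 to 0.29.

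Among cyclins, CDKs, and the phosphatase *Cdc25c*, 1 of 8 genes was called (12.5%, beside 15.9% of all genes). *Cdk2*, the partner of cyclins E and A in S phase, measured 95.8, 59.1, and 93.6 CPM in the normal and 52.5, 49.8, and 55.9 CPM in the DM1 libraries. The normal libraries 1 and 3 were high while normal library 2 lay just above the DM1 libraries, and the level fell by 36.4% (log2 fold change -0.65, 95% interval -1.05 to -0.25, adjusted p = 0.0403). The call was kept without normal library 2 (adjusted p = 0.00952) and lost without any other single library, with adjusted p-values up to 0.155. *Cdk2* overlaps *Pmel* on the opposite strand, and the strand setting of the counting is not given in the sources used here, so reads of the pair may be mixed.

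The cyclins of the G1/S transition did not pass the threshold. *Ccne1* (cyclin E1) measured 19.8, 18.6, and 19.0 CPM in normal and 17.6, 15.5, and 17.8 CPM in DM1 libraries (log2 fold change -0.17, adjusted p = 0.297). *Ccna2* (cyclin A2, for S and G2 phase) measured 146, 149, and 150.4 CPM against 164, 151, and 150.5 CPM (0.06, 95% interval -0.11 to 0.24, adjusted p = 0.649). With TPM values the log2 fold change of *Ccna2* was -0.070. *Ccne2* had a log2 fold change of 0.09 (adjusted p = 0.769).

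By CPM the mitotic cyclins and CDK1, which start M phase, scattered widely in the DM1 group. *Cdk1* measured 92.8, 90.1, and 79.0 CPM in normal and 134, 103, and 88.3 CPM in DM1 libraries (log2 fold change 0.31, 95% interval -0.03 to 0.65, adjusted p = 0.195). *Ccnb1* (cyclin B1) measured 65.9, 58.0, and 58.3 CPM against 81.5, 64.6, and 57.1 CPM (0.16, adjusted p = 0.471). By CPM, DM1 library 1 was the highest and DM1 library 3 the lowest of the group for both genes. DM1 library 3 lay within the normal range of *Cdk1* and just below that of *Ccnb1*. By TPM, DM1 library 2 was the lowest of the group, with 39.2 TPM for *Cdk1* and 43.9 TPM for *Ccnb1*. The SD by TPM in normal and DM1 was 4.97 and 8.31 for *Cdk1*, but 5.11 and 2.70 for *Ccnb1*. *Ccnb2* (cyclin B2) measured 31.9, 32.95, and 32.6 CPM against 42.1, 36.7, and 36.4 CPM, without overlap (0.24, 95% interval 0.04 to 0.45, adjusted p = 0.109). Its SD by TPM was 1.46 in normal and 2.40 in DM1 libraries. *Cdc25c*, which activates CDK1, had a log2 fold change of 0.35 (adjusted p = 0.222).

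Of the 4 transcription factors, *E2f2* was downregulated. It measured 44.3, 46.7, and 46.6 CPM in the normal and 26.2, 33.4, and 37.96 CPM in the DM1 libraries, a fall of 29.0% (log2 fold change -0.49, 95% interval -0.79 to -0.20, adjusted p = 0.035). The call was kept without DM1 library 1 or 3 and lost without any of the other 4 libraries (adjusted p up to 0.120). Here DM1 library 1 was the lowest, unlike for most members. *E2f1*, its close relative, measured 25.03, 23.4, and 25.6 CPM against 27.7, 28.1, and 27.8 CPM, all 3 above the normal libraries (0.17, adjusted p = 0.216). *Mybl2* (B-MYB) and *Foxm1*, the activators of mitotic genes, had log2 fold changes of -0.15 (adjusted p = 0.469) and 0.01 (adjusted p = 0.990).

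**Figure D2:**
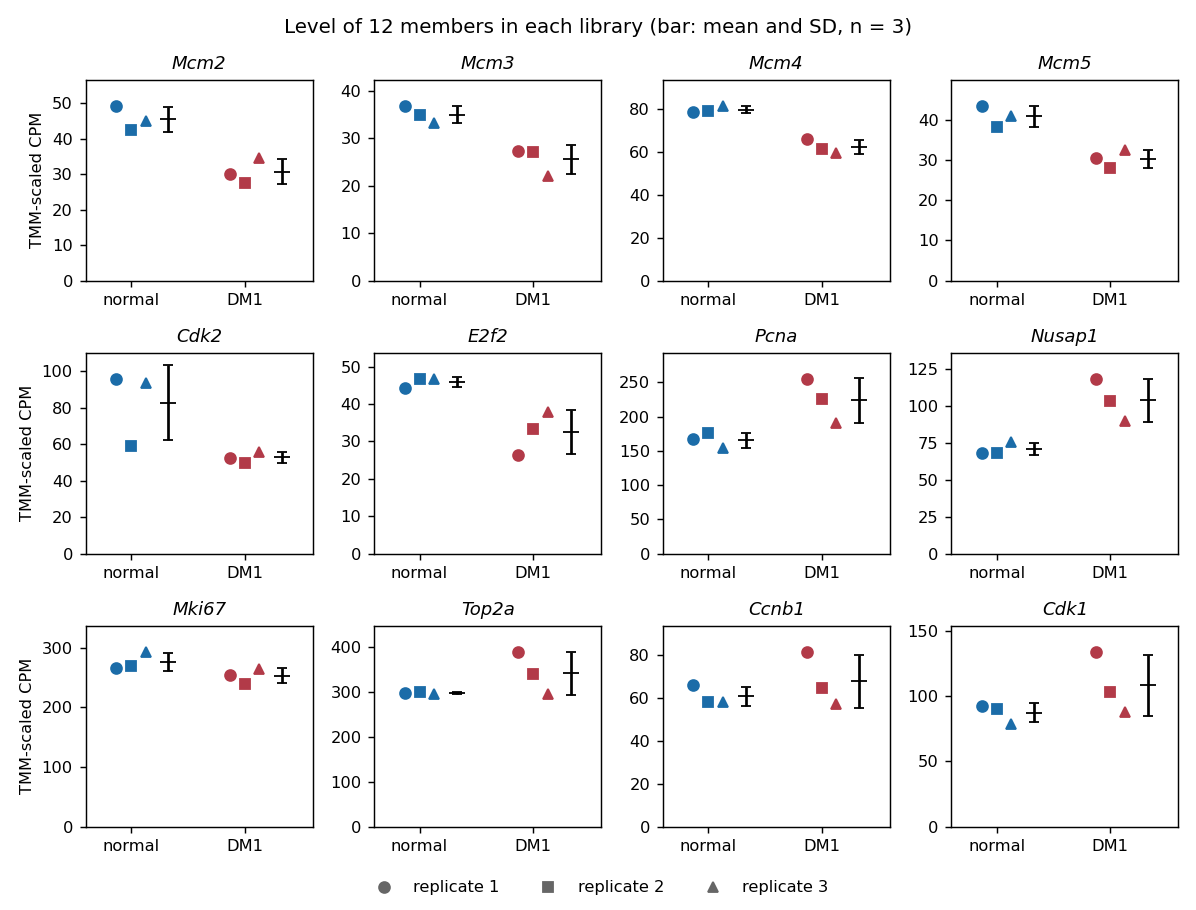
Each panel plots the level of 1 member (CPM after TMM scaling, vertical axis from 0) in the 3 normal (blue) and 3 DM1 (red) libraries, with a marker shape for each replicate number and the mean ± SD in black. The DM1 libraries lie below all normal ones for the 4 *Mcm* genes, *Cdk2*, and *E2f2* and above them for *Pcna* and *Nusap1*, while for *Cdk1* DM1 library 1 reaches 134 CPM and DM1 library 3 stays at 88.3 CPM.

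None of the 8 mitotic kinase, spindle checkpoint, and passenger complex genes passed the test. An unadjusted edgeR p under 0.05 was found for 3 of them (37.5%, beside 30.7% of all tested genes). *Plk1* (polo-like kinase 1) measured 31.0, 30.03, and 33.1 CPM in normal and 25.8, 23.2, and 27.0 CPM in DM1 libraries, without overlap (log2 fold change -0.31, adjusted p = 0.0607). *Cdc20*, the activator of the anaphase-promoting complex, had -0.34 (adjusted p = 0.0665), also without overlap, and passed with DESeq2 (adjusted p = 0.0483). *Birc5* (survivin, of the passenger complex) measured 50.6, 45.4, and 49.4 CPM against 69.0, 56.7, and 52.0 CPM (0.29, adjusted p = 0.124). *Mad2l1*, *Bub1*, *Bub1b*, *Aurka*, and *Aurkb*, for checkpoint proteins and Aurora kinases, had log2 fold changes between -0.07 and 0.25.

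Among the 9 chromosome, kinetochore, and spindle genes only *Nusap1* was called (11.1%, beside 15.9% of all genes). NUSAP1 binds and bundles spindle microtubules. It measured 68.3, 68.5, and 76.0 CPM in the normal and 119, 104, and 89.7 CPM in the DM1 libraries. The groups did not overlap, and the level was 46.5% higher in DM1 (log2 fold change 0.55, 95% interval 0.30 to 0.80, adjusted p = 0.0138). The call was lost without normal library 1 or 2 or DM1 library 2, with adjusted p-values up to 0.061. *Nusap1* overlaps *Oip5* on the opposite strand.

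*Mki67*, whose protein Ki-67 is the common marker of cycling cells, measured 265, 269.5, and 293 CPM in normal and 254, 239.5, and 265 CPM in DM1 libraries, and all 3 DM1 libraries were below the normal ones by little (log2 fold change -0.13, 95% interval -0.32 to 0.06, adjusted p = 0.356). *Top2a*, the topoisomerase that untangles sister chromatids, measured 298, 299, and 295 CPM against 389, 340.0, and 294.5 CPM, so that the groups overlapped at DM1 library 3 (0.20, 95% interval -0.05 to 0.44, adjusted p = 0.257). Neither interval reached a log2 fold change of 0.5 in size. *Cenpa*, the centromeric histone, had a log2 fold change of 0.25 without overlap (adjusted p = 0.0956), and the other 5 genes (*Cenpe*, *Cenpf*, *Kif11*, *Kif20a*, and *Tpx2*) had between -0.09 and 0.09.

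By CPM the members scattered more between the DM1 libraries than between the normal ones, which is given as a description without a test. Their summed level was 3196, 3127, and 3127 CPM in normal and 3574, 3148, and 2985 CPM in DM1 libraries, with an SD of 39.8 and 304.1 CPM. By TPM the scatter of the sums ran the other way. They were 1947, 1736, and 1689 TPM in normal and 1769, 1643, and 1755 TPM in DM1 libraries, with an SD of 137.5 and 69.1 TPM. By CPM, DM1 library 1 was the highest DM1 library for 32 of the 43 members (74.4%), beside 36.2% of all tested genes. It was also the highest of all 6 libraries for 24 members. This order depended on the scale. By TPM *Ccna2* was highest in DM1 library 3 (80.7, 78.0, and 90.0 TPM in DM1 libraries 1, 2, and 3), while *Cdk1* was still highest in library 1 (54.5, 39.2, and 41.3 TPM). The share by TPM is not given here. Measured from the mean of each gene on the log2 scale, the median deviation of the members was 0.11 in DM1 library 1, -0.03 in library 2, and -0.11 in library 3, and it stayed between -0.02 and 0.01 in the normal libraries. The 8 cyclin, CDK, and phosphatase genes had the largest group median in DM1 library 1 (0.30), whereas the licensing genes had 0.01 there. The scatter is seen in *Bub1*, a spindle checkpoint kinase singled out after its values were seen, with 56.5, 55.7, and 54.9 CPM in normal and 78.3, 67.2, and 44.8 CPM in DM1 libraries (log2 fold change 0.19, adjusted p = 0.544). The mitochondrial share of counts was 13.5%, 13.4%, and 8.90% in the DM1 libraries 1, 2, and 3. In the normal libraries 1, 2, and 3 it was 9.04%, 12.3%, and 12.6%. The part of this share in the scatter was not tested.

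**Figure D3:**
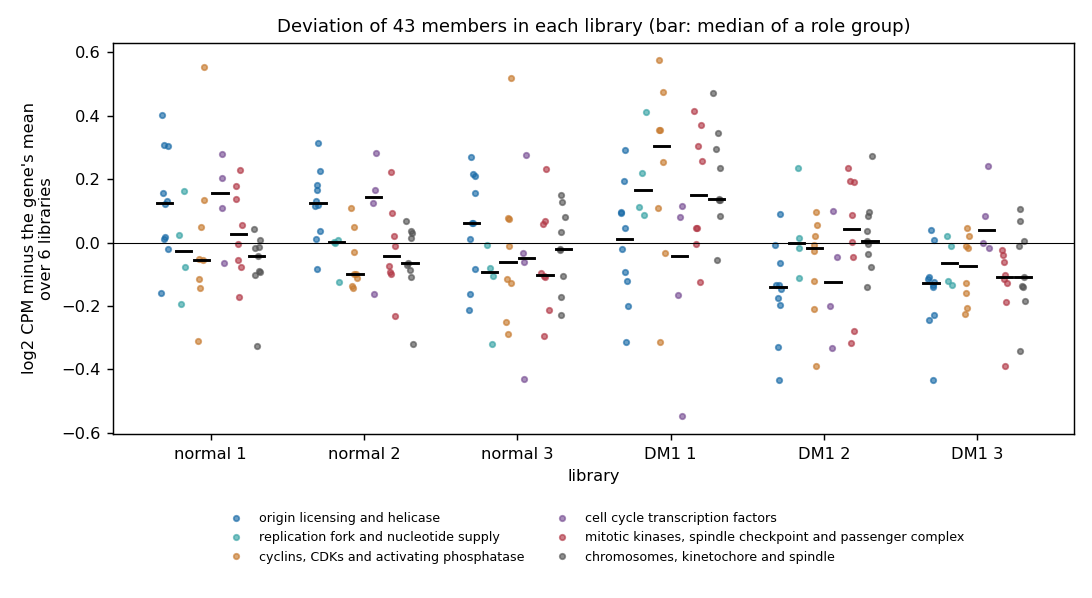
Points are the 43 members in each library (horizontal axis), as log2 CPM minus the mean of the gene over 6 libraries (vertical axis), coloured by role, and black bars are the medians of the role groups. In DM1 library 1 the cyclin and CDK group has a median of 0.30, in DM1 library 3 the chromosome group has a median of -0.11, and the median of the licensing genes is above 0 in all normal libraries and below 0 in DM1 libraries 2 and 3, although *Gins2* runs the other way.

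The calls depended on single libraries. Without DM1 library 3, 13 members were called (7 upregulated, 6 downregulated), among them *Cdk1*, *Top2a*, *Birc5*, *Bub1*, *Mad2l1*, and *Plk1*, beside 19.2% of all genes. Without DM1 library 1, 8 were called (1 upregulated, 7 downregulated) beside 13.4% of all genes, and the median of the members was -0.04 in place of 0.06. By edgeR, 0 members were called without normal library 1 or without DM1 library 2, where 11 and 13 members had an unadjusted p under 0.05 and 6.59% and 5.91% of all genes were called. Further, 3 were called without normal library 2 (*Cdk2*, *Mcm2*, and *Mcm5*, beside 7.25% of all genes), and 1 without normal library 3 (*Nusap1*, beside 5.18%). The log2 fold change of *Mcm2* stayed between -0.66 and -0.50 over these 6 fits, and that of *Nusap1* between 0.46 and 0.64.

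Base composition moved with the libraries as well. When the tested genes were split into 5 bins of GC content of the transcript, in the lowest bin (up to 43.6%) the median deviation was 0.15 in DM1 library 1 and -0.12 in DM1 library 3. Across the 43 members, which share these libraries, the log2 fold change ran with GC content at a Spearman rho of -0.383, beside -0.0422 across all tested genes with a value, and at -0.288 across the members after the trends named next were removed. When trends of GC content and length were removed from each library, an alternative chosen after seeing the data, *Mcm2*, *Mcm4*, *Mcm5*, *E2f2*, and *Nusap1* kept their calls. The call was lost for *Pcna*, whose log2 fold change went from 0.43 to 0.24 (adjusted p = 0.0569), for *Mcm3*, from -0.45 to -0.34 (adjusted p = 0.0948), and for *Cdk2*, from -0.65 to -0.58 (adjusted p = 0.0721). In their place *Cdc20*, *Cenpa*, and *Mad2l1* were called. The part of GC content in the fold changes was not tested further.

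**Figure D4:**
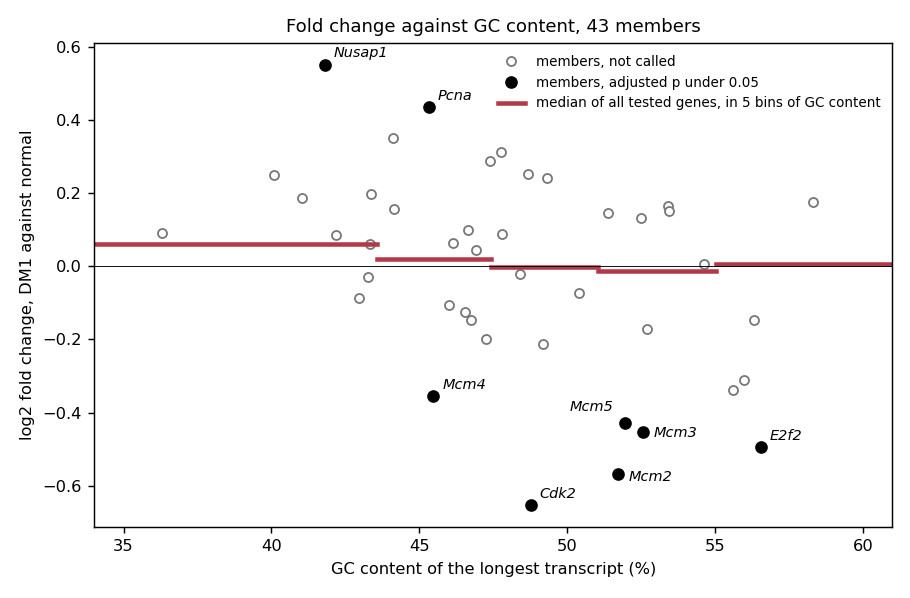
Points are the 43 members, by GC content of the longest transcript (horizontal axis, in percent) and log2 fold change of DM1 against normal (vertical axis), with filled points for the 8 called members. Red lines are the medians of all tested genes in 5 bins of GC content, from 0.06 in the lowest bin to 0.01 in the highest. *Nusap1* (41.8% GC) and *Pcna* (45.3%) lie on the left above 0, and *E2f2* (56.6%) lies on the right below it, whereas *Mcm4* (45.5%) lies below 0 beside *Pcna* and *E2f1* (58.3%) lies above 0 at the highest GC content.

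Other genes of DNA replication and mitosis, 95 on 2 hand-written lists, were called about as often as all genes. Of these, 9 were upregulated and 5 downregulated (14.7%, beside 15.9% of all genes), with a median log2 fold change of 0.08. The share called was 22.5% on the replication list and 9.09% on the mitosis list, and this difference was not tested. On the replication list of 40 genes, 5 were upregulated (beside 7.13% of all genes) and 4 downregulated (beside 8.73%). *Prim2*, the large primase subunit, rose from 34.7 ± 2.01 to 49.7 ± 3.64 CPM (adjusted p = 0.00842), and *Pole2*, a subunit of polymerase epsilon, rose from 13.5 ± 1.18 to 20.5 ± 2.29 CPM (adjusted p = 0.0143). *Cdt1*, the factor that loads MCM together with CDC6, fell from 6.77 ± 0.234 to 4.43 ± 0.136 CPM (adjusted p = 0.0151), whereas *Gmnn*, for its inhibitor geminin, rose from 12.9 ± 1.62 to 20.9 ± 4.68 CPM (adjusted p = 0.0309). *Uhrf1*, which maintains DNA methylation at the fork, and the polymerase delta subunit *Pold2* fell (log2 fold changes -0.46 and -0.56). Of the 6 fits that each left out 1 library, *Prim2* was called in 6, *Pold2* in 4, *Pole2* and *Uhrf1* in 3 each, *Cdt1* in 2, and *Gmnn* in 1.

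On the mitosis list 4 of 55 genes were upregulated, a share close to the 7.13% of all genes, and 1 was downregulated, a share below the 8.73% of all genes. *Cdkn3*, a CDK-associated phosphatase, and *Cks2*, a CDK subunit, rose (log2 fold changes 0.64 and 0.59), as did *Cenpw* (0.72) and *Cdca3* (0.35). *Ube2c*, the ubiquitin-conjugating enzyme of the anaphase-promoting complex, fell from 67.8 ± 1.17 to 55.9 ± 2.94 CPM (adjusted p = 0.0407). Of the 6 fits that each left out 1 library, *Cdkn3* was called in 3, *Cks2* in 2, and *Cenpw*, *Cdca3*, and *Ube2c* in 1 each. With GC content and length trends removed, *Cks2* was at 0.25 (adjusted p = 0.153) and *Cenpw* at 0.60 (adjusted p = 0.0529), and *Gmnn* of the replication list was at 0.49 (adjusted p = 0.0615), so that these 3 lost their calls. As among the members, DM1 library 1 was by CPM the highest DM1 library for 68 of the 95 genes of both lists (71.6%). By TPM the 95 genes summed to 2655, 2503, and 2402 TPM in normal (SD 127.0) and 2620, 2464, and 2580 TPM in DM1 libraries (SD 81.3).

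Replication-dependent histone genes are transcribed in S phase, and most of their transcripts lack a poly(A) tail, so their level depends on how RNA was selected. The 70 genes of this list were taken by name alone (symbols that start with Hist1h, Hist2h, Hist3h, or Hist4h). Whether each of them is replication-dependent was not checked. Their summed level was 114 ± 4.48 CPM in normal and 145 ± 7.29 CPM in DM1 libraries. By TPM the sums overlapped, at 183.4, 161.3, and 160.0 TPM in normal and 179.5, 171.5, and 207.6 TPM in DM1 libraries. Of 37 tested genes 3 were upregulated (8.11%, beside 7.13% of all genes) and 0 downregulated. An unadjusted edgeR p under 0.05 was found for 8 (21.6%, beside 30.7% of all tested genes). The 3 upregulated genes were *Hist1h2bc* (log2 fold change 0.38), *Hist1h1c* (0.34), and *Hist3h2a* (0.67). With GC content and length trends removed, *Hist1h2bc* was at 0.14 (adjusted p = 0.243), and the median of the tested histone genes was 0.14 in place of 0.38. The other 33 had too few counts to be tested.

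The next list holds genes of opposite action on the cell cycle, D-type cyclins beside CDK inhibitors and pocket proteins. Several of them fell in the DM1 group. Of 13 tested D-type cyclin, CDK inhibitor, and pocket protein genes, 4 were downregulated (beside 8.73% of all genes) and 0 upregulated (beside 7.13%), and 6 had an unadjusted edgeR p under 0.05 (beside 30.7%). *Ccnd3*, cyclin D3, and *Ccnd2*, cyclin D2, fell past the stricter rule, with log2 fold changes of -1.29 and -1.14, while *Ccnd1*, cyclin D1, measured 149 ± 1.40 and 144 ± 1.83 CPM (-0.05, adjusted p = 0.703). *Cdkn1a*, which encodes the CDK inhibitor p21, fell from 588 ± 7.11 to 466 ± 25.5 CPM (adjusted p = 0.0257), and *Rb1*, the retinoblastoma protein, fell from 77.1 ± 6.98 to 57.1 ± 3.33 CPM (adjusted p = 0.016). Of 17 other E2F and DREAM factors, *Rbbp4*, *Lin54*, and *E2f6* fell (log2 fold changes -0.36, -0.49, and -0.49), which is 17.6% of the list beside the 8.73%, and 0 rose.

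Many markers of the myogenic lineage and of myotubes fell in the DM1 group. Of 8 myogenic lineage markers 5 were downregulated (62.5%, beside 8.73% of all genes), and all 8 had a log2 fold change below 0. This list is not limited to the differentiated state, since it also holds *Myod1*, the myoblast determination factor. *Myog*, myogenin, was at -0.65 and *Des*, desmin, at -0.43 in log2 fold change. Of 15 myotube markers 10 were downregulated (66.7%, beside 8.73% of all genes). Among them were the perinatal myosin *Myh8* (-2.90), the embryonic myosin *Myh3* (-1.32), and the muscle creatine kinase *Ckm* (-0.84). The summed level of the 15 markers was 16620 ± 729 CPM in normal and 10270 ± 876 CPM in DM1 libraries. Of 11 tested reserve cell markers 2 were upregulated (beside 7.13% of all genes) and 4 downregulated (beside 8.73%). *Cd34* and *Id2* were upregulated (0.97 and 0.41), and *Hey1*, *Heyl*, *Hes1*, and *Sdc4* were downregulated. Over the 11 markers the log2 fold change ran from -2.33 to 0.97, with a median of -0.32 and 9 below 0. The stricter rule was passed by 2 of them, downregulated in each case (beside 2.18% of all genes in either direction). *Id2* had an edgeR adjusted p of 0.0529 after GC content and length trends were removed. *Pax7* measured 1.01 ± 0.268 and 0.914 ± 0.421 CPM in the normal and DM1 groups. The part of this lower share of myotube transcripts in the levels of the cycling genes was not tested.

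Some directions above differed with the deposited TPM values, which relate each gene to the sum over all transcripts. With limma on log2(TPM + 1) the median log2 fold change of all genes was -0.09 in place of 0.02, and that of the members -0.06 in place of 0.06. By TPM and limma, 2 members were called, *Mcm3* and *Mcm4*, both downregulated, beside 7.38% of all genes, and *Nusap1* and *Mcm2* had adjusted p-values of 0.0501 and 0.0502. The share of all calls that were upregulated was 45.0% with counts and edgeR and 32.7% with TPM values and limma. These settings also differ in the test and in the genes tested, so the part of the scale alone was not tested.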

How the data were processed

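RNA of 3 normal (CUG5) and 3 DM1 (CUG200) libraries of C2C12 cells at differentiation day 4 was analysed, with groups and replicate numbers from the labels. The authors trimmed reads (Trim Galore), aligned them to GRCm38 (HISAT2), and deposited StringTie counts per gene without normalization. They also deposited a table per library with the coverage, FPKM, and TPM of each gene, where FPKM and TPM are scaled for length and library size. FPKM was not used in any test. The coverage served to find the unit of a count: coverage times length over 75 gave the count to within 1 for 99.2% of 14019 genes with a single transcript, and the commonest low count was 4. A count is therefore not 1 read. The intervals come from the count model of edgeR, whose error estimate uses the spread between libraries and is shared in part across genes.

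Members were matched by gene name, joined by gene ID, and placed with GENCODE M21, whose spans all 43 shared. The members, gene lists, and tests were chosen with earlier results of these data known. Genes were filtered with filterByExpr (minimum count 10), scaled by TMM, and tested with the quasi-likelihood method of edgeR, using robust estimation without covariates and the Benjamini-Hochberg procedure over 19005 genes. The biological coefficient of variation was 0.221. A call is an adjusted p under 0.05, and the stricter rule adds an absolute log2 fold change over 1, the study's cutoff. CPM are counts scaled to a common library size after TMM. Named with values in every library were called members, the member with the smallest p in each direction per role, and 8 set markers. From each other list up to 4 called genes per direction could be named. No 2 libraries of a group agreed within sampling noise.

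On simulated counts of 18477 genes with a log2 fold change of 1, edgeR recovered 80.9% of 68 changed genes over 1 CPM in this comparison, with 11 false calls over both fold sizes. The alternatives were DESeq2 and its size factors, library sizes alone, other filters, no robust estimation, a replicate block, limma-trend on TPM values (log2, pseudocounts of 1 and 0.1, genes at a mean TPM of at least 0.5), counts divided by 4, each library left out, and, chosen after seeing the data, removal of GC content and length trends. Versions used were limma 3.58.1, edgeR 4.0.16, and DESeq2 1.42.0 under R 4.3.3, and numpy 2.4.6, matplotlib 3.10.9, scipy 1.17.1, and pandas 2.3.3 under Python 3.11.15.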

Additional observations from a re-analysis of the deposited data

How the results depend on the processing

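The counts of called genes moved with the processing, and the cause was not tested. With TPM values and limma-trend, at pseudocounts of 1 and 0.1, 1209 and 1153 genes were called in place of 3016, 147 passed the stricter rule at the pseudocount of 1 in place of 414, 0 and 0 members were upregulated and 2 and 2 downregulated, 0 and 0 of the other replication and mitosis genes were upregulated and 2 and 2 downregulated, and 0 and 0 histone genes were called. Under these settings *Gins2* (-0.055 and -0.058) and *Ccna2* (-0.070 and -0.071) changed sign. Of the other replication and mitosis genes, 15 were upregulated with DESeq2 and 5 with library sizes alone, in place of 9. Leaving out each library in turn gave 1028 to 3789 genes called, 273 to 438 past the stricter rule, 0 to 7 members upregulated, 0 to 7 downregulated, 1 to 25 other replication and mitosis genes upregulated, 0 to 7 downregulated, and 0 to 3 histone genes called. A fit without 1 library leaves that group with 2. No member passed the stricter rule under any of these settings.

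The same 8 members were called with DESeq2 (which added *Cdc20*), its size factors, at least 10 counts in every library, no robust estimation, and counts divided by 4. Library sizes alone lost *E2f2*, and no filter beyond 1 count lost *Cdk2*. Over the named members, 284 values kept direction and side of the threshold, 48 lost and 4 gained a call, and 4 changed sign.

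Libraries of the same number did not deviate together: the correlations of their deviations were 0.0675, 0.0222, and 0.0263, and not every library correlated best with its own number. With the replicate block, 2823 genes and the same 8 members were called (2 upregulated, 6 downregulated).

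With 3 libraries per group, the widest 95% interval of a member reached 0.483 to either side on the log2 scale, and each member had at least 336 counts in every library.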
